A study of Mus musculus with 10 samples.

Results

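The genes described here encode the contractile machinery of skeletal muscle, including the extraocular muscles that move the eye. The 38 genes were chosen by symbol from a list of sarcomere, calcium-handling and energy genes, out of 55487 distinct genes counted. They were read in RNA of the mouse RPE/choroid complex, meaning the retinal pigment epithelium and the vessel layer under it. Messenger RNA of 10 libraries was counted, 5 from control mice and 5 from mice called ADQ. Every mouse carried iDTR (allele Gt(ROSA)26Sortm1(HBEGF)Awai, on C57BL/6), a diphtheria toxin receptor that is made only after Cre recombination, and every mouse received diphtheria toxin into the peritoneum. ADQ mice also carried adiponectin-Cre, whose promoter acts in adiponectin-expressing fat cells; control mice had no Cre and so had the receptor allele and the toxin without its activation. Toxin was given daily for 7 weeks to the Cre mice, per the series' description. Age is not given in the labels, and the labels do not say whether the samples were separate animals. The p-values therefore set the difference between groups only against the spread of these samples, part of which may be technical.

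Skeletal muscle contracts when myosin heavy chains of the thick filament pull on actin of the thin filament. Calcium released from the sarcoplasmic reticulum by the ryanodine receptor binds troponin and frees the actin. The filaments are anchored at the Z-disc, and titin spans from there to the middle of the sarcomere. Fibres differ in the isoforms they use: fast fibres hold Myh4, Myh1 or Myh2, slow fibres hold Myh7, and extraocular muscles keep embryonic and perinatal chains and add Myh13, the chain of their fastest fibres. Muscle is not part of the RPE or the choroid, and the extraocular muscles attach to the sclera just outside them.

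Promoter sequence shows the letters that muscle genes have in common before their start sites. RefSeq promoters on GRCm38.p6 were matched for 31 of the 38 genes, with 37 starts between them, and the 250 bases before each start were searched. The E-box CAGCTG, which myogenic factors bind and which reads the same on both strands, lay in 13 of 37 starts of these genes (35.1%), against 13.0% of all 32851 promoters. By gene it lay in 12 of 31, since the overlapping windows of the 2 Tnni1 starts hold the same E-box. The M-CAT element CATTCC, searched on both strands, lay in 8 of 37 (21.6%), against 12.6%. The MEF2 site lay in 8 of 37 (21.6%), against 2.92%, and TATAAA, also searched on both strands, in 8 of 37, against 12.4%. A match is a description of the letters and not a measured binding site. The promoters of 4 genes are printed because the results turn on them: Acta1, highest per kilobase of exon, Myh4, the chain at the highest level, Csrp3, the one gene that passed the test, and Myh13, the extraocular chain. Each reads 5′ to 3′ towards the start site on the gene's own strand, and capitals mark the E-box, the M-CAT element (either strand) or the MEF2 site.

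Acta1, chr8:123894776-123895025, minus strand: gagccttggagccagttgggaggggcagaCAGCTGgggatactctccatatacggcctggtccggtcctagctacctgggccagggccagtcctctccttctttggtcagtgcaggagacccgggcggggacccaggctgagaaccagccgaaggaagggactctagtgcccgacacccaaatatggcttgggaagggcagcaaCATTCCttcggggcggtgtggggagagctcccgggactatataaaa
Myh4, chr11:67237562-67237811, plus strand: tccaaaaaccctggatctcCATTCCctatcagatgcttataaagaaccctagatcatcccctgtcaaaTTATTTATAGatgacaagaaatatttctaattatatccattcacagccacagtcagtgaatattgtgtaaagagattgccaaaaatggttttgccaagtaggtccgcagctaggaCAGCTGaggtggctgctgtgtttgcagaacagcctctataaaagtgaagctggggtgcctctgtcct
Csrp3, chr7:48848052-48848301, minus strand: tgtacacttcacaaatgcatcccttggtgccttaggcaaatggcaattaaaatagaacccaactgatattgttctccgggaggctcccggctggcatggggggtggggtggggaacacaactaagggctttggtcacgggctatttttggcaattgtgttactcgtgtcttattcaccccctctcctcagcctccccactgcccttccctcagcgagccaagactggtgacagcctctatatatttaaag
Myh13, chr11:67326853-67327102, plus strand: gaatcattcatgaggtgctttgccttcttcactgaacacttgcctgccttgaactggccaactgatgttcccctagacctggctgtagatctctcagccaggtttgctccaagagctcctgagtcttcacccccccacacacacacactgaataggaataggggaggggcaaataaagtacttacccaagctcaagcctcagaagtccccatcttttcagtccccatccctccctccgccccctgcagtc

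Acta1 holds an E-box from -221 to -216 and an M-CAT element from -46 to -41 before its start. Myh4 holds 1 match of each kind, the M-CAT element from -231 to -226, the MEF2 site from -182 to -173 and the E-box from -67 to -62. None of the marked letters lie in the windows of Csrp3, shown for the first of its 2 starts, or of Myh13.

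Depth ran from 43.6 M to 64.1 M counts per library (M, mega). Of 20684 genes tested over the whole table with edgeR's quasi-likelihood test, 171 passed an adjusted p of 0.05 (0.827% of genes), 153 higher and 18 lower in ADQ; the split was less one-sided with DESeq2, at 502 higher and 266 lower. The 8 RPE markers summed to 29558 to 49548 CPM (a gene's count per mega of the library's counts, scaled by TMM), so the labelled tissue was present in every library. Markers of fat cells, the targeted cells, ran in sum from 78.7 to 245 CPM in control and from 81.8 to 117 CPM in ADQ. None of the 9 that could be tested passed, but 8 were below 0 with a median log2 fold change of -1.42, and 5 had an unadjusted p under 0.05 (Cfd, adipsin, at a mean of 39.9 and 4.16 CPM, chosen after its values were seen). In control 5, Cfd was at 2.66 CPM, within its ADQ range of 1.30 to 7.27 CPM. Log2 fold changes of Lipe (-0.08) and Fabp4 (-0.15) were near 0. Most fat cell markers thus had lower means in ADQ beside the muscle genes, and their part in the muscle results was not tested. ADQ 5 and control 1 stood apart in their groups for the muscle genes, and the results are given with and without them.

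Muscle RNA was present in every library and was mainly of the fast type. The 38 genes summed to 2238, 3974, 4025, 4977 and 3858 CPM in control libraries 1 to 5 (3814 ± 988, SD, n = 5). In ADQ libraries 1 to 5 they summed to 2973, 3658, 3289.6, 3520.4 and 769 CPM (2842 ± 1188, SD, n = 5). As a share of the TMM-scaled library size this was 0.224% to 0.498% for control and 0.0769% to 0.366% for ADQ. The groups overlapped, and the low library of each group was control 1 and ADQ 5. Genes of fast fibres made 97.1% to 98.0% of the summed CPM of fast, slow and extraocular or developmental genes in 9 libraries, and 93.8% in ADQ 5. In whole tissue, fewer muscle fibres and less RNA per fibre cannot be told apart.

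Against control, 1 of the 37 genes tested fell in ADQ and none rose. The gene was Csrp3, and the lower calls made 0.087% of all genes tested. A log2 fold change below 0 was found for 28 of the 37 and above 0 for 9, with a median of -0.32, against 48.2% below 0 and a median of 0.01 over all genes tested. Unadjusted p under 0.05 was reached by 2 of them, Csrp3 and Myoz2. Myl3 was not tested for its low counts, 0 to 9 in control and 0 to 20 in ADQ. CPM of the groups overlapped for all 38 genes, where 3.16% of all genes tested did not overlap. These genes share libraries and one source of tissue, so their common sign is not 37 separate measurements.

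**Figure D1:**
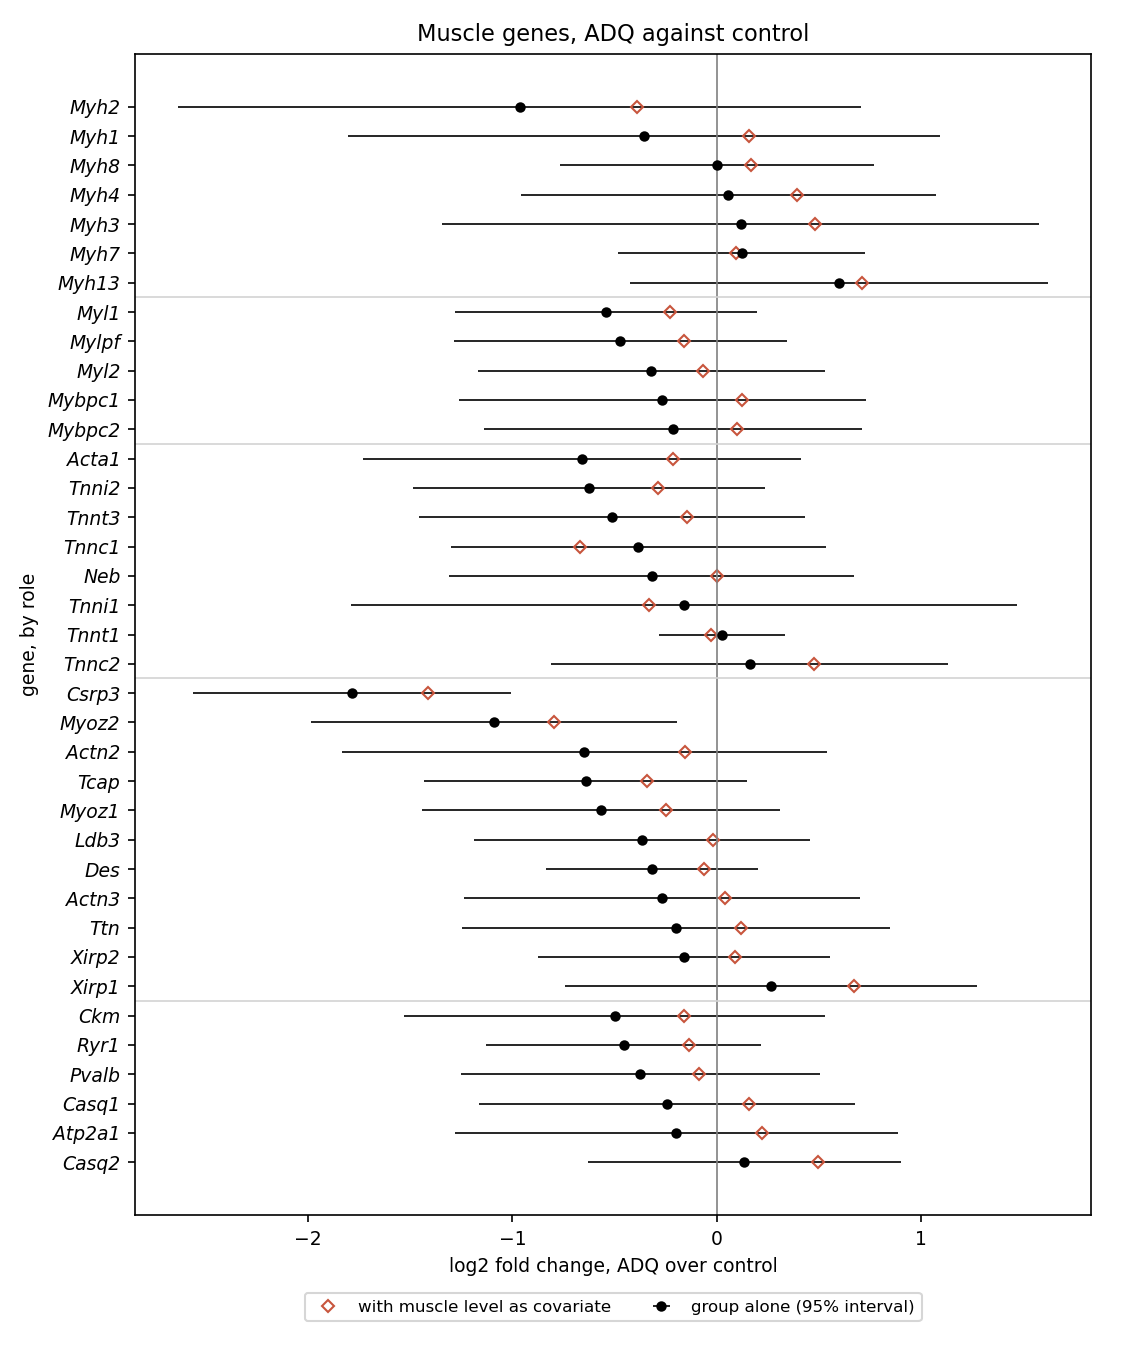
Log2 fold change of 37 muscle genes, ADQ over control (x axis), grouped by role from myosin heavy chains at the top to calcium handling and energy at the bottom. Points are the fit on group alone with its 95% interval and diamonds are the fit with muscle level as a covariate; the intervals of Csrp3 and Myoz2 are the ones that do not reach 0.

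Myosin heavy chains, the motors of the thick filament, were dominated by Myh4. Levels per kilobase of exon, averaged over the libraries, were 38.9 CPM for Myh4 (the fast IIb chain), 8.92 for Myh1 (IIx) and 2.79 for Myh2 (IIa). Embryonic Myh3 followed at 0.481, slow Myh7 at 0.254, perinatal Myh8 at 0.208 and extraocular Myh13 at 0.0780 CPM per kilobase. Of the 7 chains per kilobase, Myh4 made 73.2% ± 8.83 in control and 78.3% ± 8.58 in ADQ (SD, n = 5 each), from 60.8% to 88.7% over the libraries. Myh1 made 18.2% ± 7.05 and 15.4% ± 6.63, and Myh2 6.81% ± 3.13 and 3.34% ± 1.68. Those differences between groups were within the spread of the libraries. Myh1, Myh2, Myh4 and Myh8 lie side by side on chromosome 11 and are near-identical over long stretches, so how reads were split between them is uncertain.

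**Figure D2:**
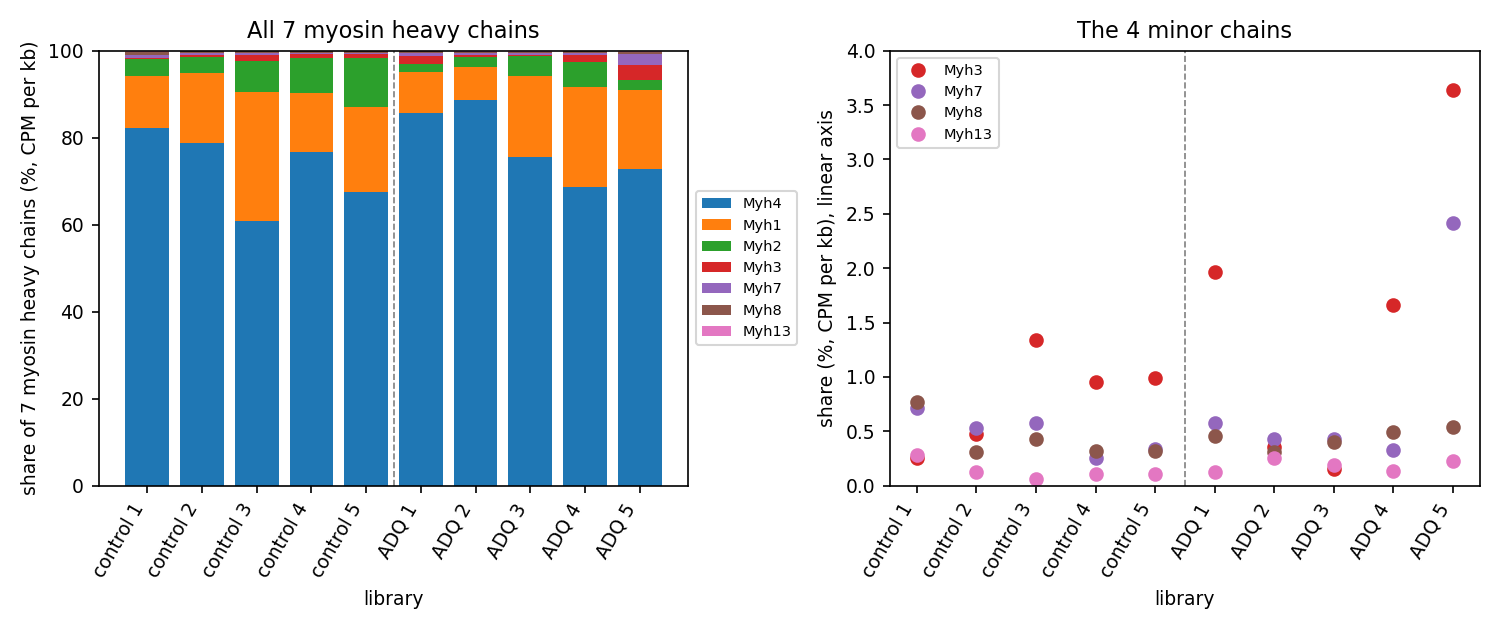
Share of each myosin heavy chain in the sum of the 7, in CPM per kilobase of exon, by library. The left panel stacks all 7 to 100%, and Myh4 is the tallest block in each bar; the right panel draws the 4 minor chains on a linear axis, where Myh3 (3.64%) and Myh7 (2.41%) are highest in ADQ 5.

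Myh4 (GRCm38, chromosome 11, 67238029 to 67260446) was read at 149, 268, 240.1, 306 and 184 CPM in controls 1 to 5 and at 201, 328, 377, 234 and 54.1 CPM in ADQ 1 to 5. ADQ 5 was lowest of all and ADQ 3 highest, and the group means were 229 ± 62.9 and 239 ± 125 CPM (SD, n = 5). Its log2 fold change was 0.06 (SE 0.45, 95% interval -0.96 to 1.07, adjusted p = 0.966). Myh2 stood at 8.32, 15.1, 33.6, 38.4 and 36.2 CPM in control and 4.91, 10.6, 27.2, 22.9 and 2.01 CPM in ADQ. Controls 3 to 5 were above every ADQ library, while controls 1 and 2 were within the ADQ range. Its log2 fold change of -0.96 (SE 0.73) did not pass (interval -2.63 to 0.70, adjusted p = 0.577).

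Myh13, the chain that marks extraocular muscle (chromosome 11, 67321658 to 67371586), was rare. Counts were 23, 22, 12, 20 and 14 in controls and 14, 50, 52, 21 and 11 in ADQ libraries, above the 3 counts that a count of 0 would allow. In CPM this was 0.527, 0.434, 0.234, 0.431 and 0.291 against 0.303, 0.978, 0.992, 0.461 and 0.170. ADQ 2 and ADQ 3 were above all controls and ADQ 5 was below them. The log2 fold change was 0.60 (SE 0.48, interval -0.42 to 1.62, adjusted p = 0.584). Per kilobase, Myh13 made 0.06% to 0.28% of the 7 chains.

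The embryonic and perinatal chains, which extraocular muscle retains in the adult, were at a few CPM. Myh3 ranged from 0.458 to 5.33 CPM in control and 0.782 to 5.71 CPM in ADQ, and Myh8 from 1.70 to 3.30 and 0.789 to 3.93 CPM. Slow Myh7 ranged from 1.33 to 3.28 CPM in control and 1.58 to 3.09 CPM in ADQ. In ADQ 5, Myh7 (2.57 CPM) and Myh3 (2.72 CPM) were the heavy chains that were not the lowest of the 10 libraries. Of the 7 chains, 2 had a log2 fold change below 0 and the median was 0.06, with none passing.

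Myosin light chains, which sit on the neck of the heavy chain, were at high level per kilobase. Mylpf, the fast regulatory chain (165 CPM per kilobase), stood at 132, 188, 203, 266 and 230.4 CPM in control and 187, 180.0, 125, 197 and 46.0 CPM in ADQ. Myl1, the fast essential chain (94.6 CPM per kilobase), stood at 151, 252, 241, 332 and 189 CPM in control and 197, 198, 134, 208 and 61.8 CPM in ADQ. For both, ADQ 5 was lowest of all and the other 4 ADQ libraries lay within or just under the control range. The log2 fold changes were -0.47 (SE 0.36, interval -1.29 to 0.34, adjusted p = 0.579) for Mylpf and -0.54 (SE 0.33, interval -1.28 to 0.20, adjusted p = 0.482) for Myl1. The slow chains Myl2 and Myl3 were nearly absent, Myl2 at 0.390 to 1.52 CPM and Myl3 at 0 to 0.391 CPM. The myosin-binding proteins Mybpc1 (28.7 ± 9.59 and 23.9 ± 12.4 CPM) and Mybpc2 (39.9 ± 8.68 and 34.4 ± 17.6 CPM, SD, n = 5) had log2 fold changes of -0.27 and -0.21. All 5 tested genes of this group were below 0, with a median of -0.32 and none passing.

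Thin filament genes held the highest level of the 38. Acta1, skeletal muscle actin (301 CPM per kilobase), stood at 278, 652, 581, 874 and 445 CPM in control and 384, 448, 422, 459.8 and 77.0 CPM in ADQ. ADQ 1 to 4 lay close together between control 1 and control 2, and ADQ 5 was well below all others. For Acta1 the log2 fold change was -0.66 (SE 0.47, interval -1.73 to 0.41, adjusted p = 0.552). Tnni2, the fast inhibitory troponin (194 CPM per kilobase), stood at 209, 345, 355, 439 and 413 CPM in control and 278, 282, 211, 306 and 64.7 CPM in ADQ. All ADQ libraries were below controls 2 to 5, and control 1 was below 4 of the 5 ADQ libraries; the log2 fold change was -0.62 (SE 0.38, interval -1.49 to 0.24, adjusted p = 0.487).

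Tnnt3, the fast troponin that ties the complex to tropomyosin, was next to Acta1 per kilobase (252 CPM) and averaged 468 ± 126 and 328 ± 144 CPM (SD, n = 5, log2 fold change -0.51, adjusted p = 0.601). Its slow counterpart Tnnt1 was at 8.33 to 12.3 CPM in control and 8.24 to 11.6 CPM in ADQ, with a log2 fold change of 0.03 and the narrowest interval of the 37 genes (-0.28 to 0.33). Slow troponins Tnni1 and Tnnc1 stayed between 0.0572 and 2.79 CPM. Neb, the nebulin that runs along the thin filament, averaged 34.6 ± 9.73 and 27.8 ± 13.4 CPM. Tnnc2, the fast calcium-binding troponin, was at 0.789 to 5.66 CPM, far below the other fast troponins. Of its exon bases 74% overlap Ube2c on the opposite strand, and the strand setting of the counting is not given in the sources used here, so the level of Tnnc2 is uncertain. In this group 6 of 8 were below 0, with a median of -0.35 and none passing.

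Z-disc genes included the one gene that fell. Csrp3 encodes muscle LIM protein, a Z-disc protein of slow fibres and heart (ENSMUSG00000030470, chromosome 7, 48830398 to 48848033, minus strand). Its counts were 115, 227, 347, 492 and 244 in controls 1 to 5 and 63, 89, 76, 134 and 71 in ADQ 1 to 5. In CPM this was 2.64, 4.48, 6.77, 10.6 and 5.07 in control and 1.36, 1.74, 1.45, 2.94 and 1.10 in ADQ. Every ADQ library was below controls 2 to 5, and ADQ 4 was just above control 1. The mean was 5.91 ± 3.01 CPM in control and 1.72 ± 0.722 CPM in ADQ (SD, n = 5), which is 3.44-fold lower by the fit. The log2 fold change was -1.78 (SE 0.36, interval -2.56 to -1.01), with edgeR's adjusted p = 0.0384.

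The call of Csrp3 rested on a narrow margin. It passed without control 1 (adjusted p = 0.0222), control 5 (0.0353) or ADQ 4 (0.0298), and without control 1 and ADQ 5 together (0.0404, an alternative chosen after seeing the data). Left out one at a time, each of the other libraries ended the call: control 2 (0.0543), control 3 (0.0603), control 4 (0.0887), ADQ 1 (0.0803), ADQ 2 (0.114), ADQ 3 (0.119) and ADQ 5 (0.0795). The log2 fold change stayed between -2.06 and -1.41 over all 22 alternatives, of which 12 passed. The authors' deposited table also lists Csrp3 as lower, with a log2 fold change of -1.48 and an adjusted p of 0.0462. Of the 38 genes the authors' deposited table lists 35, of which Csrp3 alone is past 0.05, where 859 of 15860 genes are (5.42%). The table was made from the same counts and is not a separate experiment.

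Set against the muscle content of each library, Csrp3 was again lower in ADQ, though the separation of the groups depended on how content was measured. Content was taken as the sum of 43 other skeletal muscle genes, none of them among the 38. Per 1000 CPM of that sum, Csrp3 stood at 2.95, 3.42, 5.01, 6.88 and 3.93 in control and 1.26, 1.56, 1.45, 2.36 and 1.87 in ADQ. The groups did not overlap on this ratio, alone among the 38 genes, where 3.66% of all genes tested did not overlap. In ADQ 5, however, Pygm (171 CPM) and Cox8b (145 CPM) made 53.8% of that sum, against 24.4% to 38.3% in the other libraries, so the sum was low there by less (0.534 times the other ADQ libraries) than the 38 genes were (0.226 times). Without these 2 genes the ratio in ADQ 5 was 4.04, still below the lowest control at 4.79. Per 1000 CPM of the other 37 genes, Csrp3 stood at 1.18, 1.13, 1.68, 2.14 and 1.32 in control and at 0.459, 0.476, 0.441, 0.837 and 1.43 in ADQ, so ADQ 5 was above 3 of the 5 controls and the groups overlapped. Both were chosen after seeing the data. With the mean log2 CPM of the 43 genes as a covariate, the log2 fold change of Csrp3 was -1.41 (SE 0.31) and edgeR's adjusted p was 0.0551, so it did not pass. In that fit none of the 37 passed, where 0.856% of all genes did, and 20 were below 0 with a median of -0.03.

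**Figure D3:**
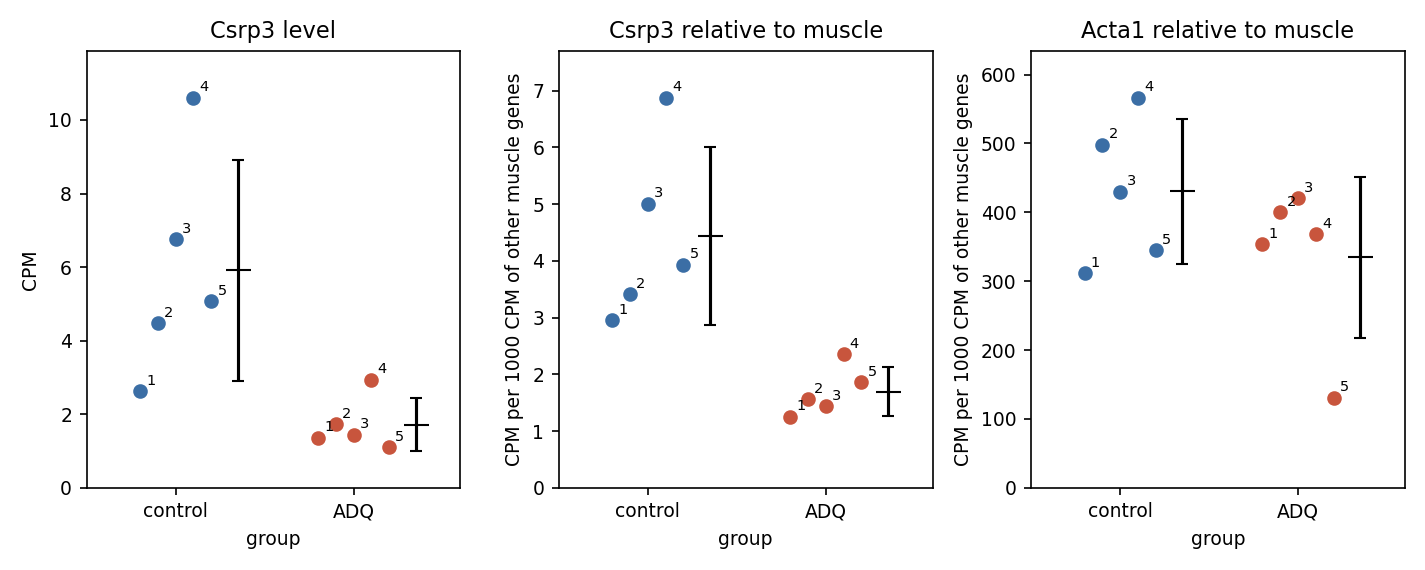
Csrp3 in CPM (left), Csrp3 per 1000 CPM of 43 other muscle genes (middle) and Acta1 on the same ratio (right), by group. Each point is a library numbered by replicate and bars are mean ± SD (n = 5); on the middle panel the highest ADQ library (2.36) is below the lowest control (2.95), and on the right ADQ 5 lies below the rest.

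Markers of other sources were read beside Csrp3. The 9 cardiac muscle markers summed to 73.1 to 112 CPM in control and 59.9 to 105 CPM in ADQ, and none of the 7 that could be tested passed. Most of that sum was Myl4 alone, at a mean of 83.7 CPM in control and 69.5 CPM in ADQ. Nppa, the atrial peptide, was at or near 0. The 7 markers of corneal and conjunctival epithelium summed to 298, 104, 2235, 159 and 768 CPM in controls and to 79.0 to 94.8 CPM in ADQ, so their sum, like Csrp3, was lower in ADQ. Nearly all of the ADQ sum was Aldh3a1, at a mean of 84.2 CPM of 85.4 CPM, and Aldh3a1 averaged 144 CPM in control. The keratin Krt15 averaged 265 CPM in control and 0.489 CPM in ADQ. In control 2, Krt5 (0.355 CPM), Krt14 (0) and Krt15 (0.592 CPM) were at or near their ADQ levels, and Krt12 was at 0.275 CPM or less in all 10 libraries. The control with the most of them was control 3, while Csrp3 was highest in control 4, and their part in the result was not tested. None of the 5 epithelial markers that could be tested passed, and all 5 were below 0 with an unadjusted p under 0.05.

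Myoz2, calsarcin of slow fibres, which binds calcineurin at the Z-disc, had the next smallest p of the 38. It stood at 1.28, 1.24, 3.92, 5.86 and 3.93 CPM in control and 1.41, 1.53, 0.992, 2.40 and 1.32 CPM in ADQ. Controls 3 to 5 were above all ADQ libraries and controls 1 and 2 were among them. The log2 fold change was -1.09 (SE 0.42, interval -1.99 to -0.19), but with edgeR's adjusted p = 0.275 it did not pass, nor in any of 22 alternatives. Tcap, telethonin, which caps titin at the Z-disc and had the highest level per kilobase of this group (127 CPM), stood at 93.4, 142, 133, 174 and 190.0 CPM in control and 108, 115, 93.3, 125 and 30.2 CPM in ADQ. All ADQ libraries were below controls 2 to 5, and control 1 was within the ADQ range; the log2 fold change was -0.64 (SE 0.35, adjusted p = 0.444).

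The remaining Z-disc and scaffold genes did not pass. Titin (Ttn) ranged over 61.8 to 131 CPM in control and over 15.7 to 106 CPM in ADQ, and the crosslinker Actn2 averaged 33.4 ± 13.2 and 21.4 ± 11.4 CPM (SD, n = 5). Log2 fold changes were -0.65 for Actn2, -0.57 for fast Myoz1, -0.37 for Ldb3, -0.32 for desmin (Des), -0.27 for fast Actn3, -0.20 for Ttn and -0.16 for Xirp2. Xirp1, an actin-binding repeat protein, was the exception at 0.27. In all 10 of 11 were below 0, with a median of -0.37. Desmin is also made by smooth muscle, and the 12 smooth muscle and pericyte markers summed to 1019 to 1286 CPM in control and 1099.7 to 1294 CPM in ADQ, none passing.

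Genes of calcium handling and energy did not pass either. Pvalb, the calcium buffer of fast fibres (209 CPM per kilobase), stood at 176, 253, 224, 315 and 261 CPM in control and 260.0, 265, 154, 219 and 51.1 CPM in ADQ. Ryr1, the calcium release channel, stood at 9.60, 17.9, 17.1, 18.6 and 18.6 CPM in control and 11.5, 14.0, 15.5, 14.4 and 4.36 CPM in ADQ. Ckm, muscle creatine kinase, stood at 127, 201, 190.0, 267 and 226 CPM in control and 181, 220.2, 129, 156 and 29.0 CPM in ADQ. ADQ 5 was lowest of all for the 3 genes, control 1 was the lowest control, and the groups overlapped. Log2 fold changes were -0.37 (SE 0.39, adjusted p = 0.688) for Pvalb, -0.45 (SE 0.31, adjusted p = 0.517) for Ryr1 and -0.50 (SE 0.45, adjusted p = 0.643) for Ckm. The calcium pump Atp2a1 averaged 385 ± 116 and 335 ± 174 CPM (log2 fold change -0.20), and the calcium store proteins Casq1 and Casq2 had log2 fold changes of -0.24 and 0.13. Atp2a1 shares 21.9% of its exon bases with Rabep2 and Ckm 15.5% with A930016O22Rik, both on the opposite strand. In this group 5 of 6 were below 0, with a median of -0.31.

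Libraries of one group differed widely for these genes. ADQ 5 was the lowest library of all 10 for 29 of the 38 genes (76.3%), against 8.21% of all genes tested. It was under 0.5 times the median of the other 4 ADQ libraries for 30 genes (78.9%), against 5.17% of all genes tested. Control 1 was the lowest control for 30 of the 38, against 4441 of the 20684 genes tested. These libraries were singled out after their values were seen.

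**Figure D4:**
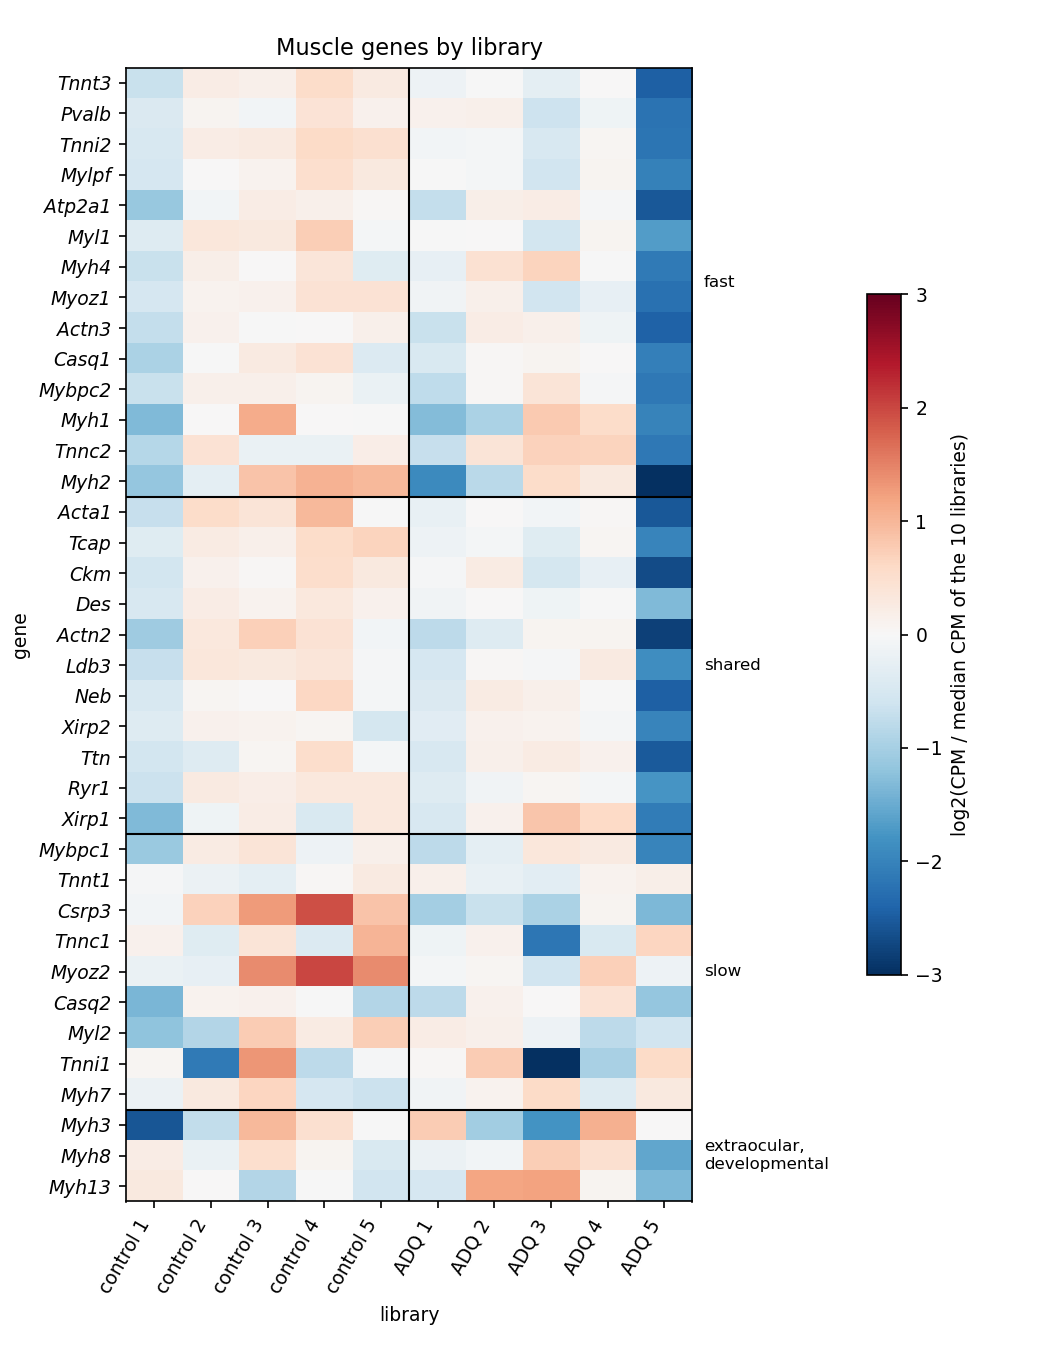
Log2 of CPM over the gene's median CPM of the 10 libraries, for 37 genes (rows, grouped by fibre type; Myl3 is left out for its zeros) and 10 libraries (columns), with colours limited at ±3. The column of ADQ 5 is blue for all fast and shared genes. Of the slow genes Mybpc1 (7.30 CPM), Casq2, Csrp3 and, more faintly, Myl2 (0.604 CPM) are also blue there, while Tnnt1, Tnnc1, Tnni1 and Myh7 are not low.

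Within ADQ 5, a single library and so without a test, fast and shared genes were all low and slow genes were spread. Its level over the median of the other ADQ libraries was 0.120 (Myh2) to 0.313 (Myl1) for the 14 fast genes, with a median of 0.220. For the 11 genes shared by fibre types it was 0.156 (Actn2) to 0.416 (Des), with a median of 0.180. Slow genes had a median of 0.793, and ran from low to high. Mybpc1, the slow gene of the highest CPM, was at 0.249, as low as the fast genes, with Casq2 at 0.424 and Myl3 at 0. Csrp3 was at 0.689 and Myl2 at 0.664, and 5 of the 10 were above 0.8: Myoz2 (0.897), Tnnt1 (1.17), Myh7 (1.23), Tnnc1 (1.90) and Tnni1 (1.93). Among the extraocular and developmental chains Myh13 was at 0.236, Myh8 at 0.288 and Myh3 at 0.914. Except for Tnnt1, those 5 slow genes and Myh3 were at a few CPM or less, where fewer counts stand behind a ratio. Slow genes made 5.53% of the summed CPM of fast, slow and extraocular or developmental genes in ADQ 5 and 1.82% to 2.54% in the other libraries. Of the 29.0 CPM of slow genes in ADQ 5, Tnnt1 alone gave 11.6 CPM. Tnnt1 stayed at 8.24 to 12.3 CPM in all 10 libraries, while the 38 genes summed to 769 to 4977 CPM, so it did not follow muscle content.

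Control 1 was low to a lesser degree. Its level over the median of the other controls was 0.238 (Myh2) to 0.685 (Pvalb) for fast genes, with a median of 0.563, and 0.366 (Actn2) to 0.725 (Xirp2) for shared genes, with a median of 0.590. Slow genes had a median of 0.425, below that of the fast genes. Those above 0.8 were Myh7, Tnnt1, Tnnc1 and Tnni1 of slow fibres, with Myh8 and Myh13, the last at 1.46.

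Rod photoreceptor RNA moved the other way in these libraries. The 8 rod markers summed to 1661, 333, 384, 393 and 294 CPM in controls 1 to 5 and to 671, 298, 927, 2252 and 3340 CPM in ADQ 1 to 5. All 8 were highest of all in ADQ 5, and control 1 was the highest control for all 8. In ADQ 4, however, the rod sum was 2252 CPM and the muscle sum was 3520.4 CPM. The part of rod RNA in the muscle result was not tested. Without ADQ 5 the median log2 fold change of the muscle genes was -0.13, and without ADQ 5 and control 1 together it was -0.25 with 29 of 37 below 0.

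**Figure D5:**
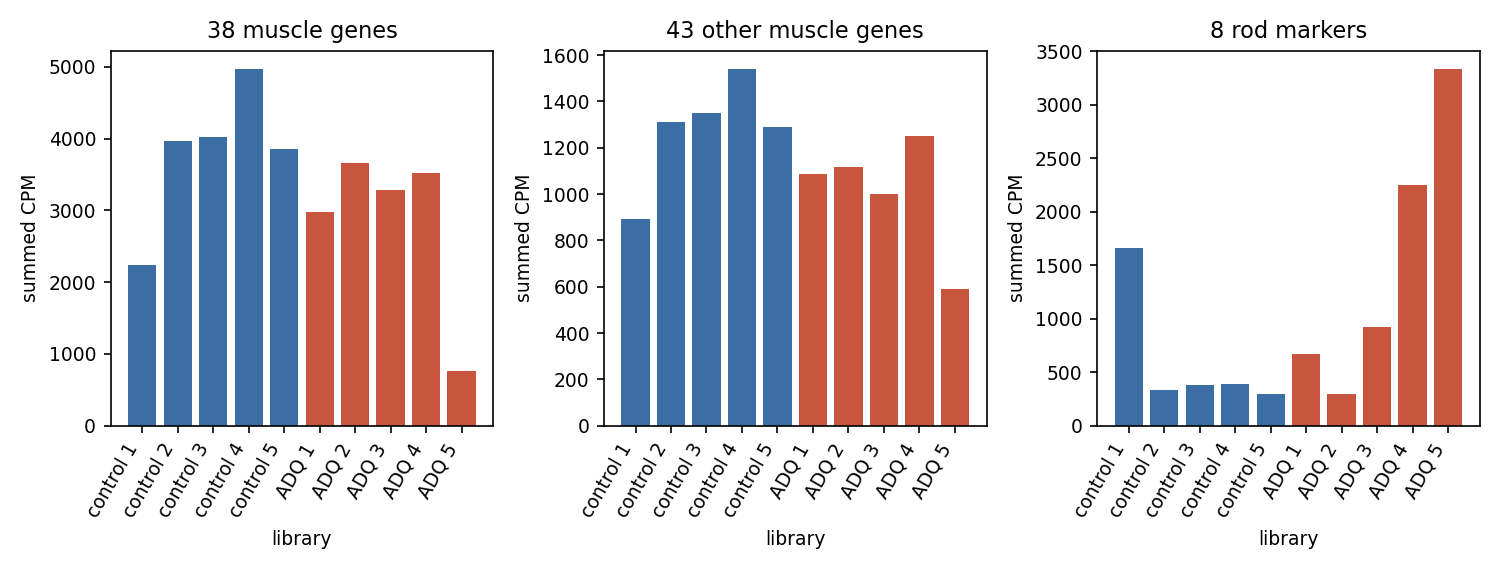
Summed CPM of the 38 muscle genes (left), 43 other skeletal muscle genes (middle) and 8 rod markers (right) in each of the 10 libraries. ADQ 5 is lowest in both muscle panels (769 and 588 CPM) and highest for rods (3340 CPM), and control 1 is the lowest control in both muscle panels.

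Skeletal muscle genes outside the 38 were also lowest in ADQ 5 and, among controls, in control 1. Of 44 listed, 43 were counted and tested, none passed, 37 were below 0 and the median log2 fold change was -0.30. Their sums were 892, 1309, 1351, 1542 and 1289 CPM in controls and 1085, 1118, 1003, 1249 and 588 CPM in ADQ libraries. ADQ 5 was lowest of all for 36 of 43 (83.7%), against 8.21% of all genes tested. Control 1 was the lowest control for 38 of 43, against 4441 of the 20684 genes tested. Eno3, the muscle enolase, averaged 262 ± 60.7 CPM in control and 181 ± 71.4 CPM in ADQ (SD, n = 5, log2 fold change -0.54, adjusted p = 0.473). The glycogen phosphorylase Pygm (217 ± 24.9 and 189.2 ± 13.3 CPM) and the cytochrome oxidase subunit Cox8b (156 ± 34.1 and 141 ± 48.2 CPM) also did not pass. Pygm and Cox8b were among 6 genes of this list above 0.8 times the other ADQ libraries in ADQ 5, while Trdn, which anchors the calcium release complex, was lowest at 0.106.

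Regulators of muscle did not pass the test either. Of 8 myogenic and satellite cell factors 5 were tested, and of 9 neuromuscular junction genes 6 were, and none passed. Their median log2 fold changes were -0.04 and 0.03. Myod1, a myogenic factor of differentiating and adult muscle, stood at 0.458, 1.26, 1.40, 1.34 and 0.436 CPM in controls. In ADQ it was at 0.671, 0.509, 1.30, 1.14 and 0.031 CPM, lowest in ADQ 5. Pax3 stood at 10.1 ± 0.698 and 9.79 ± 1.53 CPM (SD, n = 5) and was highest of all in ADQ 5 (11.9 CPM). ADQ 5 was lowest of all for 2 of the 8 factors and 2 of the 9 junction genes, against 8.21% of all genes tested. It was highest of all for 1 factor and 2 junction genes. The junction genes summed to 115 CPM in ADQ 5, against 70.4 to 101 CPM in the other libraries. Among the listed markers of tissue outside the muscle fibres, only Kera passed, 1 of 7 in its list, where 0.827% of all genes tested passed. Kera, a keratan sulfate proteoglycan of sclera and cornea, rose, with a mean of 2.84 ± 0.999 CPM in control and one of 6.29 ± 1.41 CPM in ADQ (SD, n = 5). The log2 fold change of Kera was 1.15, with an adjusted p of 0.0470. All 7 sclera and tendon markers were above 0, and they summed to 1022 to 1686 CPM in control and 1069 to 1974 CPM in ADQ.

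Transcript length moved with the muscle genes in some libraries. Across the 37 genes tested, Spearman's rho of the log2 fold change with exon length was 0.339, against 0.0760 over 20661 genes with a known length. Within libraries, rho of the level over the gene's median with exon length was 0.548 in ADQ 3, -0.461 in control 5 and -0.333 in ADQ 1, and between -0.170 and 0.179 in the other 7. Myh4, a long transcript, was highest of all in ADQ 3 at 377 CPM, while the short Mylpf was at 125 CPM there, its lowest after ADQ 5. Genes are not independent replicates, all 37 share the same libraries, and no test was made of this relation.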

How the data were processed

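RNA of the RPE/choroid complex was read in 5 control and 5 ADQ samples, grouped and numbered by their titles. Per the labels' protocols, tissue went into TRIzol, RNA was purified with NucleoSpin and cDNA was made with SMARTer. The submitters' processing notes name GRCm38, bcl2fastq, DRAGEN, edgeR and limma without role or version; the sources used here do not give the strand setting. The deposited counts are whole numbers per Ensembl gene and library, not normalized, in 55774 entries, with 287 repeats left out here. Per library, the authors' deposited table gives log2 CPM, besides log2 fold changes with intervals, a linear fold change, p-values (raw and adjusted) and 2 test scores (t and B), and the sources used here do not say how they were made. Its log2 fold changes and adjusted p-values were read as the authors' values, and its other columns were not used.

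All genes were tested in 1 fit with edgeR 4.0.16 (R 4.3.3, limma 3.58.1): filterByExpr, TMM, a robust quasi-likelihood fit on group, and Benjamini-Hochberg adjustment over 20684 genes at 0.05. Every adjusted p in the report comes from edgeR unless another source is named. Fold changes are ADQ over control. Standard errors divide the absolute log2 fold change by the root of the F statistic, and intervals are 95%. Levels per kilobase divide CPM by the merged exon length in GENCODE M21 (GRCm38); 99.4% of the gene identifiers are found there. Sums, shares and ratios to other libraries are given without a test. A limit of 3 counts, 0.0464 to 0.0687 CPM, covers counting error only, since the reads were amplified and no molecular identifiers are described. No library duplicated another: the smallest chi-square per degree of freedom over the 45 pairs was 33.9.

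The genes and lists were chosen with earlier results of these data known. All 38 genes could be named; values in every library were given for those past 0.05, for Myh13, and in each role group for the highest level per kilobase and the 2 smallest p. Of other lists, genes past 0.05 and up to 3 of the highest level were named; Cfd, Krt12, Myod1, Pax3, Nppa and Trdn were named after their values were seen. Alternatives were other scalings and filters, DESeq2 1.42.0, voom, a muscle covariate, a replicate block and leaving libraries out. On simulated data of 20684 genes for this comparison, the test found 31.3% of 67 genes with a simulated 1.5-fold difference. It found 77.6% of 67 at 2-fold and 100% of 66 at 4-fold, with no sign wrong and 9 false calls. The changed genes were drawn from all tested genes above a low mean level, with the dispersion of the fit. Muscle genes such as Acta1 (SE 0.47) and Myh2 (SE 0.73) spread widely between libraries, so these rates may not hold for them.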

Additional observations from a re-analysis of the deposited data

Results flagged for a closer look

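In a group of 5, a value was listed when the gap between the highest or lowest library and the next one took more than 0.710 of the group's range. Of 78 groups examined, 7 met this, and chance gives about 1 in 20. In ADQ 5, Acta1 was at 77.0 CPM (other ADQ libraries 384 to 459.8), Tnnt3 at 76.8 CPM (344 to 423) and Des at 64.6 CPM (149 to 164). The sum of the 38 muscle genes was 769 CPM in ADQ 5, against 2973 to 3658 CPM in ADQ 1 to 4. In control 1, Actn3 was at 46.3 CPM (other controls 75.3 to 84.9) and Ryr1 at 9.60 CPM (17.1 to 18.6). Myl3, at 0 to 0.0763 CPM in the other ADQ libraries, was at 0.391 CPM in ADQ 2.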

How the results depend on the processing

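Of 812 values of single muscle genes under the alternatives, 750 kept their direction and side of the threshold, 52 changed sign (18 genes, none of them past the threshold) and 10, all of Csrp3, lost the call. The number of muscle genes passing was 0 with library size alone (Csrp3 adjusted p = 0.0506), voom (0.0534) and the muscle covariate, and 0 to 1 with single libraries left out. Over all genes, 171 calls (153 higher, 18 lower) became 768 with DESeq2 (502 and 266), 664 with voom (511 and 153) and 95 without control 1 and ADQ 5 (86 and 9). They became 78 to 357 with a single library left out, moving by over 1.5 times without control 1 (96), control 4 (78), control 5 (357), ADQ 2 (81), ADQ 3 (99) and ADQ 4 (87); without control 2 they were 96 higher and 41 lower. The cause was not tested.

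The median log2 fold change of the muscle genes ran from -0.42 to -0.03 over the other alternatives and from -0.44 to -0.13 with single libraries left out. With the muscle covariate, log2 fold changes changed sign to 0.16 (Myh1), 0.12 (Mybpc1), 0.0994 (Mybpc2), -0.0280 (Tnnt1), 0.0031 (Neb), 0.12 (Ttn), 0.0420 (Actn3), 0.0897 (Xirp2), 0.22 (Atp2a1) and 0.16 (Casq1). With voom they were -0.0948 (Myh4) and 0.12 (Tnni1). Without control 1 and ADQ 5, chosen after seeing the data, they were -0.12 (Myh3), -0.0259 (Tnnt1) and 0.0118 (Xirp2), and 13 of 37 genes had an unadjusted p under 0.05. Myh8 was -0.0090 with RLE scaling, -0.0004 with muscle genes left out of library sizes and -0.0115 with DESeq2, and 0.27 without control 1 and ADQ 5. With single libraries left out, ranges that crossed 0 were -0.77 to 0.0319 (Myh1), -0.24 to 0.49 (Myh3), -0.17 to 0.31 (Myh4), -0.0113 to 0.34 (Myh7), -0.24 to 0.23 (Myh8), -0.45 to 0.0276 (Mybpc2), -0.0363 to 0.11 (Tnnt1), -0.46 to 0.44 (Tnni1), -0.0361 to 0.42 (Tnnc2), -0.35 to 0.0632 (Ttn), -0.0020 to 0.53 (Xirp1), -0.28 to 0.0743 (Xirp2), -0.37 to 0.0606 (Atp2a1) and -0.0611 to 0.31 (Casq2).

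Samples with the same replicate number did not deviate together in every pair (correlations 0.0334, 0.0298, 0.163, 0.0150 and -0.113). These correlations cannot decide whether samples of the same number were paired or shared a batch. With the replicate block 694 genes passed (392 higher, 302 lower), Csrp3 among them (adjusted p = 0.00732), and the log2 fold changes of Myh4 (-0.13), Myh8 (-0.13) and Tnnc2 (-0.0179) changed sign; 1 of 5 controls correlated best with its own number. Depth limits Myl3 (0 to 20 counts a library), Myh13 (11 to 52), Tnni1 (3 to 143) and Tnnc1 (14 to 122) most.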
